A study of Homo sapiens with 9 samples.

Results

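Integrins are the cell surface receptors that hold cells to the extracellular matrix, and 10 of their subunits were followed across HEK293 cell lines that differ in the form of MEK1 they express. The subunits were ITGA2, ITGA3, ITGA5, ITGA6 and ITGAV on the alpha side and ITGB1, ITGB3, ITGB4, ITGB5 and ITGB8 on the beta side. They were taken by the gene name that the array's annotation gives a probe, which found all 10 genes, out of 36618 gene names on the array, in 11 of its 50598 probes. All 11 probes entered the test, as did 25400 probes of 19211 genes in all.

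HEK293 is a human embryonic kidney cell line. The WT, F53S and K57N lines each stably expressed HA-tagged MEK1, the kinase that activates ERK, as the wild-type protein, as F53S, a mutant found in RASopathies, or as K57N, a mutant found in cancer. The lines were made by transfection of a plasmid and selection with puromycin, and RNA was taken from cells in the steady state. Total RNA was labeled with 1 dye and hybridized to 9 arrays, 3 per line. Each form of MEK1 was represented by 1 stable line, so a difference due to the mutation and a difference between the lines from another source cannot be told apart, and the tests measure only the spread between arrays.

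An integrin is a pair of 1 alpha and 1 beta subunit, and the pair decides which ligand is bound. ITGB1 pairs with most alpha subunits, among them ITGA2 in a collagen receptor, ITGA3 and ITGA6 in laminin receptors, and ITGA5 in the classical fibronectin receptor. ITGAV pairs with ITGB1, ITGB3, ITGB5 and ITGB8 in receptors for ligands with an RGD motif, such as vitronectin and the latent form of TGF-beta, and ITGB4 pairs with ITGA6 in hemidesmosomes. Inside the cell, talins and kindlins activate integrins, and kinases such as FAK and Src signal from them, in part to the pathway of MEK1 and ERK.

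Values are log2 signals relative to the 75th percentile of the same array, so 0 stands for the signal at that percentile. The arrays came from 2 slides, with replicate 1 of every line on slide 1 and replicates 2 and 3 on slide 2. The 75th percentile of the signal was between 245 and 376 on slide 1 and between 695 and 821 on slide 2, and slide 1 had fewer probes well above background (23714 to 26113, against 27115 to 29324). Of 8 genes typical of HEK293 cells, 7 cleared the background on every array of each line, as did 1 of 4 keratinocyte markers (KRT14, while KRT5, TP63 and DSG3 did so on none), 2 of 4 endothelial markers and, by line, 3 or 4 of 5 blood cell markers and 0 or 1 of 4 fibroblast markers. The MAP2K1 probe, which reads the endogenous gene and possibly the introduced one, had a mean of 2.37 ± 0.04 (SD, n = 3) on WT arrays, 2.45 ± 0.06 on F53S arrays and 2.85 ± 0.06 on K57N arrays. Its K57N values (2.81 to 2.92) did not overlap those of WT (2.34 to 2.42), with a limma adjusted p of 0.135, and 0.00758 with slide as a term. Because a probe's brightness depends on its sequence, each subunit was compared only with itself.

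The first comparison asked how integrin expression in cells with the cancer mutant differed from that in WT cells. The values of K57N and WT did not overlap for ITGA3, ITGA6 and ITGB5, which were higher in K57N, and for ITGB8, which was lower. ITGB4 was also lower without overlap, but only by -0.035 at replicate 2, and its K57N array of slide 1 was not well above background. ITGA2 was well above background in K57N cells only. ITGA6 was the only subunit to rise past an adjusted p of 0.05 by limma, and its change was less than 2-fold. When slide was a term (the slide fit), ITGA3, ITGA6 and ITGB5 rose and ITGB8 fell. The differences of ITGA3 and ITGB8 were also more than 2-fold, but not with normexp background correction (0.80 and -0.96 on the log2 scale).

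Of the 10 subunits, 7 were well above background on all 9 arrays, and ITGA2, ITGB3 and ITGB4 passed the filter through lines in which they read higher. Taken as counts, 4 subunits with ITGA2 were higher without overlap, where 10.2% of all genes tested were, and 2 with ITGB4 were lower without overlap, against 12.6%. A gene was called when its limma p, adjusted by the Benjamini-Hochberg method over all probes tested, was below 0.05 and its change was above 2-fold. By this rule 0 subunits were called higher and 0 lower, where 1.52% and 0.739% of all genes tested were called. At an unadjusted p below 0.05 and the same fold, 2 subunits (ITGA2 and ITGA3) were higher and 1 (ITGB8) was lower, by limma and by the methods' t-test alike. ITGA2 is in this count through measured values below background in WT cells, against which its bound on the processed signal was 1.44-fold. Of all genes, 2.59% and 1.94% met this by limma and 2.27% and 1.62% by the methods' t-test, which called 0 subunits after adjustment. By adjusted p alone, with no fold limit, 1 subunit was higher and 0 were lower, against 1.73% and 1.03% of all genes.

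In the slide fit, the called subunits were 1 higher, ITGA3, and 1 lower, ITGB8, where 2.56% and 1.96% of all genes were called. By adjusted p alone this fit held 3 subunits higher and 1 lower, against 8.58% and 10.8% of all genes. The slide term left each difference as it was, because every line had the same number of arrays on each slide, and it lowered the median standard error over all genes from 0.291 to 0.134.

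**Figure D1:**
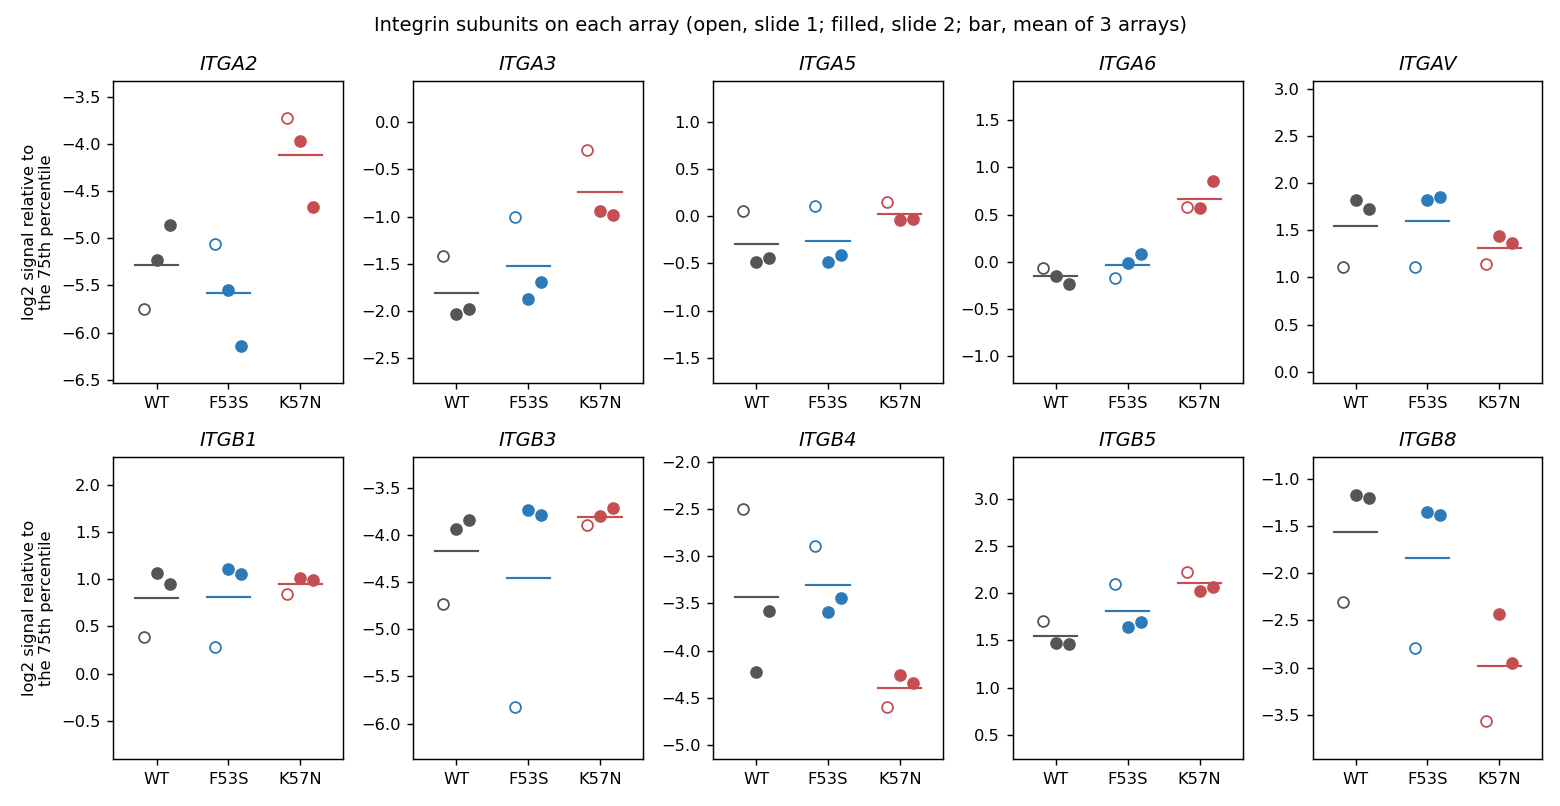
The log2 signal of each integrin subunit relative to the 75th percentile of the array (y axis, each panel spans the same range around its own center) is plotted by cell line (x axis), with 1 point per array, open for slide 1 and filled for slide 2, and a bar for the mean of 3 arrays. All 3 K57N arrays lie above all 3 WT arrays for ITGA2, ITGA3, ITGA6 and ITGB5 and below them for ITGB4 and ITGB8, while F53S and WT overlap in every panel. Not well above background were ITGA2 on all WT and F53S arrays, ITGB3 on the slide 1 arrays of WT and F53S, and ITGB4 on the slide 1 array of K57N.

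Among the alpha subunits, ITGA6 (probe at chr2:173370556-173370615 of hg19, plus strand) is the laminin receptor subunit that also forms the hemidesmosome integrin. Its 3 WT arrays read -0.07, -0.15 and -0.23, its F53S arrays -0.18, -0.01 and 0.09, and its K57N arrays 0.58, 0.57 and 0.86. All K57N arrays were above all others, and the slides hardly differed. K57N exceeded WT by 0.82 ± 0.16 (SE), or 1.77-fold, with an adjusted p of 0.0356 by limma, and 0.00352 in the slide fit. That first p rose above 0.05 when any 1 array was left out except replicate 1 of F53S (between 0.0675 and 0.161 for the others), while in the slide fit it was at most 0.0192. It was also above 0.05 with normexp background correction (0.0638), without a filter on dim probes (0.273), with the mean of both probes (0.113) and by the methods' t-test (adjusted p = 0.0872). The second ITGA6 probe (chr2:173369203-173369262) was dimmer and differed by 0.69 ± 0.30, with an adjusted p of 0.374, and 0.00548 in the slide fit.

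ITGA3 (chr17:48167365-48167424, plus strand) is the alpha subunit of the main laminin receptor of epithelia. WT arrays read -1.41, -2.04 and -1.98, F53S arrays -1.01, -1.87 and -1.69, and K57N arrays -0.29, -0.94 and -0.98. Slide 1 read higher than slide 2 in every line, and within each slide K57N was the highest and WT the lowest. K57N exceeded WT by 1.07 ± 0.30 (SE), or 2.10-fold, with an adjusted p of 0.135 by limma. It was 1.12 between the arrays of slide 1 and 1.05 on slide 2, and in the slide fit the standard error was 0.09 and the adjusted p 0.000338. With replicate number as a block, which also pairs the slides, the adjusted p was 0.00134.

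ITGA2 (chr5:52389637-52389696, plus strand), the alpha subunit of a collagen receptor, was close to the limit of detection. It was well above background on all 3 K57N arrays, at -3.73, -3.97 and -4.67, and on no WT or F53S array. The measured values were -5.75, -5.23 and -4.86 in WT and -5.06, -5.55 and -6.14 in F53S cells. All K57N arrays were above all others. Because the other lines had only a bound, set on each array by the higher of the probe's own value and the dimmest signal counted as well above background, K57N was at least 1.44-fold higher than WT and at least 1.56-fold higher than F53S on this scale. With normexp background correction the measured log2 differences were 0.17 against each line, which is smaller than these bounds. The adjusted p against WT by limma was 0.180, and 0.0577 in the slide fit.

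ITGA5 (chr12:54789656-54789715, minus strand), which carries the fibronectin receptor, read 0.06, -0.49 and -0.45 on the WT arrays, 0.11, -0.49 and -0.41 on the F53S arrays and 0.15, -0.04 and -0.03 on the K57N arrays. The groups overlapped through the arrays of slide 1. K57N differed from WT by 0.32, with a 95% interval of -0.19 to 0.83 and an adjusted p of 0.691 by limma (0.0699 in the slide fit). On slide 2 alone it was 0.43, with an adjusted p of 0.0129.

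ITGAV (chr2:187545295-187545354, plus strand), the partner of several beta subunits, was read by 10 spots per array and was bright in all lines. Its values were 1.11, 1.82 and 1.73 on the WT arrays, 1.11, 1.82 and 1.85 on the F53S arrays and 1.14, 1.44 and 1.37 on the K57N arrays. On slide 2 both K57N arrays were below the WT and F53S arrays, and on slide 1 the 3 lines lay together. The difference of K57N from WT was -0.24 (95% interval -0.85 to 0.38, limma adjusted p = 0.882, and 0.199 in the slide fit). On slide 2 alone it was -0.37, with an adjusted p of 0.0223.

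Among the beta subunits, ITGB8 (chr7:20455137-20455196, plus strand), which pairs with ITGAV in a receptor that activates latent TGF-beta, had the lowest difference. WT arrays read -2.31, -1.17 and -1.21, F53S arrays -2.79, -1.35 and -1.38, and K57N arrays -3.56, -2.43 and -2.95. Slide 1 read lower than slide 2 in every line, and all K57N arrays were below all WT arrays. The difference of K57N from WT was -1.42 ± 0.49 (SE), with an adjusted p of 0.229 by limma. It was -1.25 on slide 1 and -1.50 on slide 2, and in the slide fit the standard error was 0.16 and the adjusted p 0.00139. With replicate number as a block the adjusted p was 0.00283. In slide fits with 1 array left out, ITGA3 and ITGB8 were called against WT in 9 of 9.

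ITGB5 (chr3:124482491-124482550, minus strand), which pairs with ITGAV in a vitronectin receptor, varied little between arrays. It read 1.71, 1.47 and 1.47 on the WT arrays, 2.10, 1.64 and 1.70 on the F53S arrays and 2.23, 2.02 and 2.07 on the K57N arrays. K57N was the highest and WT the lowest on each slide. K57N exceeded WT by 0.56 ± 0.18 (SE), or 1.47-fold, with an adjusted p of 0.187 by limma, 0.00558 in the slide fit and 0.0151 with replicate number as a block. Between arrays of the same number it was 0.52, 0.55 and 0.60.

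ITGB4 (chr17:73753824-73753883, plus strand), the hemidesmosome subunit, was dim, and its K57N array of slide 1 was not well above background. Its values were -2.50, -4.22 and -3.58 on the WT arrays, -2.89, -3.59 and -3.44 on the F53S arrays and -4.59, -4.26 and -4.34 on the K57N arrays. The WT and K57N arrays of replicate 2 lay within 0.04 of each other, and at replicate 1 the difference was -2.09. The difference of K57N from WT was -0.96 ± 0.40 (SE), with an adjusted p of 0.353 by limma and 0.0815 in the slide fit. It was -0.40 on slide 2 alone, -0.42 with normexp background correction and -0.50 without replicate 1 of WT.

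ITGB1 (chr10:33200507-33200566, minus strand), the most widely shared beta subunit, was read by 10 spots per array and was found at 0.39, 1.07 and 0.95 on the WT arrays, 0.29, 1.11 and 1.05 on the F53S arrays and 0.85, 1.02 and 0.99 on the K57N arrays. ITGB3 (chr17:45389027-45389086, plus strand), which pairs with ITGAV in a vitronectin receptor of endothelium and bone, was dim, at -4.74, -3.94 and -3.85 on the WT arrays, -5.83, -3.74 and -3.79 on the F53S arrays and -3.90, -3.81 and -3.72 on the K57N arrays. For both genes the slide 1 arrays of WT and F53S were the lowest (for ITGB3 not well above background), and the slide 2 arrays of the 3 lines lay close together. K57N differed from WT by 0.15 for ITGB1 (95% interval -0.46 to 0.77) and 0.37 for ITGB3 (-0.85 to 1.58), with limma adjusted p of 0.962 and 0.934. On slide 2 alone these differences were -0.001 and 0.13.

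**Figure D2:**
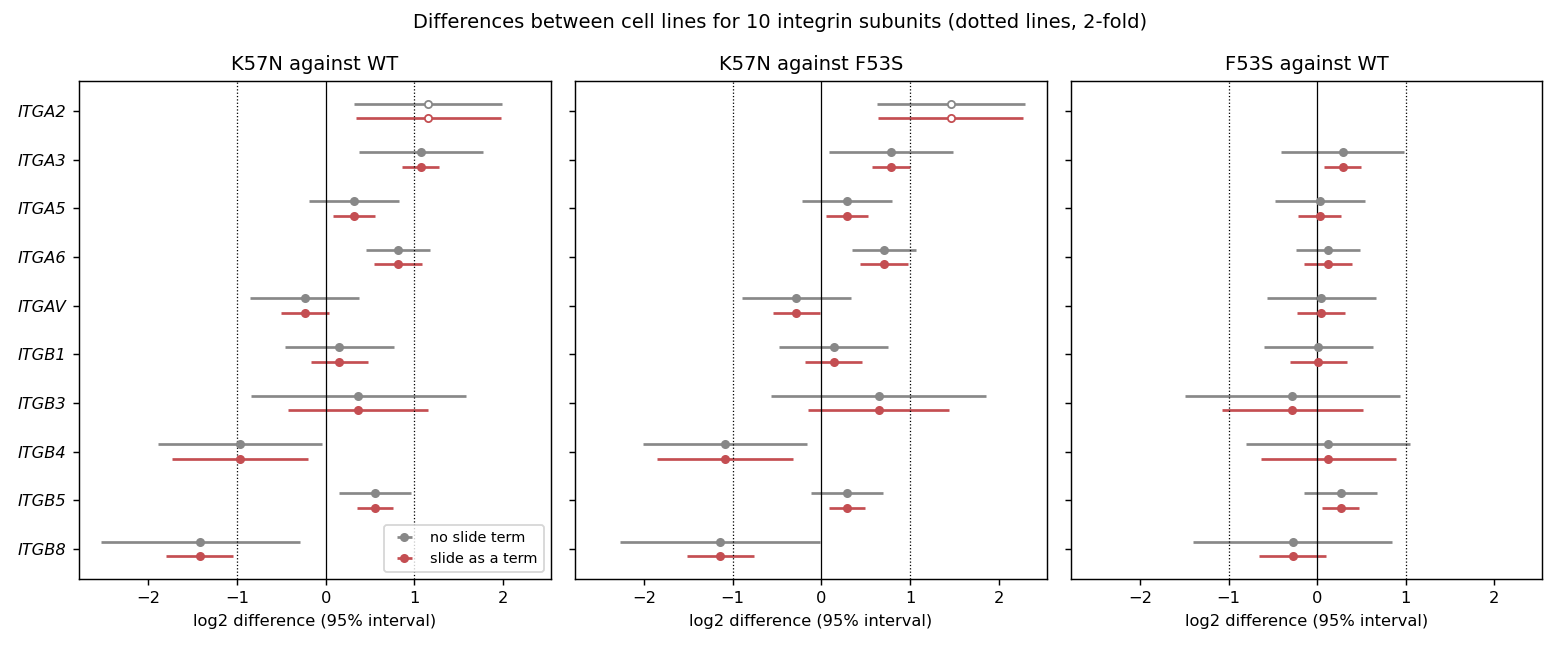
The log2 difference between cell lines (x axis) with its 95% interval is plotted for each subunit (y axis) from the limma fit without the slide (gray) and with slide as a term (red), and dotted lines stand for 2-fold. Against WT, the intervals of ITGA3 (0.38 to 1.77) and ITGB8 (-2.54 to -0.30) narrow with the slide term (0.86 to 1.28 and -1.80 to -1.04). Open points (ITGA2) are measured values against a line that was not well above background, and ITGA2 is left out of F53S against WT for that reason.

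By side of the pair, the alpha subunits had a median difference of 0.82 from WT, and 4 of 5 had a higher mean in K57N cells. With ITGA2 at its bound the median was 0.53. The beta subunits had a median of 0.15, and 3 of 5 had a higher mean. Over the 10 subunits the median was 0.34 with 7 of 10 higher, while over all genes tested the median was -0.06 with 42.9% higher. These counts and medians were not tested and support nothing about the list, which was chosen with results of the same arrays known.

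Promoter windows were looked at for the subunits that passed an adjusted p of 0.05 in K57N against either line in the slide fit. RefSeq start sites on GRCh38.p14 gave windows of 300 bases, from 250 before to 50 after the start, for 7 of the 10 genes and 12 start sites in all. ITGA3, ITGB3 and ITGB4 were not matched. On both strands 4 motifs were searched, namely TGANTCA of AP-1, CCGGAAG of ETS factors, GTGGGCG of EGR factors and GGGCGG of SP1, of which the latter pair can share letters. AP-1 and ETS factors are known nuclear endpoints of ERK signaling, and EGR1 is induced by it. A window each is shown for ITGA2, ITGA6, ITGB5 and ITGB8 (of several start sites, the one with the most kinds of motif), from 250 bases before to 20 after the start, in the gene's direction with motif letters in capitals. They are chr5:52989102-52989371 on the plus strand, chr2:172427336-172427605 on the plus strand, chr3:124901399-124901668 on the minus strand and chr7:20330650-20330919 on the plus strand.
ITGA2: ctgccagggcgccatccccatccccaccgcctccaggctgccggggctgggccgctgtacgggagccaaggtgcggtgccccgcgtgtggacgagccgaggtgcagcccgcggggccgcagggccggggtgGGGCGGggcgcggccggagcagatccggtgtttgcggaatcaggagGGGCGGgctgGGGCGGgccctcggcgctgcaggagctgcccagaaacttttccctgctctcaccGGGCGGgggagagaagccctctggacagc
ITGA6: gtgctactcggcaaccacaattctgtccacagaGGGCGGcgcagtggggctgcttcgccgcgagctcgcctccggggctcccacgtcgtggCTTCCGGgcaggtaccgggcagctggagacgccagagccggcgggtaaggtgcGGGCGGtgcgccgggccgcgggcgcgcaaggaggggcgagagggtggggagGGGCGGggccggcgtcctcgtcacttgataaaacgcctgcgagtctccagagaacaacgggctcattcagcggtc
ITGB5: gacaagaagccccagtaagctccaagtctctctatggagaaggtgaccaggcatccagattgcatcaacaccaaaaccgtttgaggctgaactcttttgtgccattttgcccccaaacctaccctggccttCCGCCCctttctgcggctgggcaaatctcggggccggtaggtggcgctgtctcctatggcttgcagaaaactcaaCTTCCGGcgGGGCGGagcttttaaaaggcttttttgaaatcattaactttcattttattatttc
ITGB8: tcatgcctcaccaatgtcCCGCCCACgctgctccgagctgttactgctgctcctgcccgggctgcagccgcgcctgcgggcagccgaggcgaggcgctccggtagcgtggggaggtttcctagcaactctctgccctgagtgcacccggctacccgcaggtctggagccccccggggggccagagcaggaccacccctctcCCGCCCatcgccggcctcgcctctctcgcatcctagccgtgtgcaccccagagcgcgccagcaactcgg

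The ITGA2 window held 4 SP1 motifs and none of the others. The ITGA6 window shown held 3 SP1 motifs and 1 ETS motif, and the ITGB5 window shown held 2 SP1 motifs and 1 ETS motif. No ETS motif was in the other windows of ITGA6 and ITGB5. ITGB8, the subunit that was lower in K57N cells, held 2 SP1 motifs, and the first of them shared its letters with the only EGR motif among the windows of these genes. The only AP-1 motif was in the ITGA5 window, 6 bases before the start. Over the 12 windows, 9 held SP1, 2 ETS, 1 EGR and 1 AP-1 motifs. Of all 35116 windows, 45.0% held the SP1 motif, 10.3% the ETS motif, 9.5% the EGR motif and 7.7% the AP-1 motif. A match of letters is no evidence that a factor binds there.

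The next comparison asked whether integrin expression in K57N cells also differed from that in F53S cells. It uses the same K57N arrays, so its values are not independent of those above. The groups did not overlap for ITGA2, ITGA3 and ITGA6, which were higher in K57N cells (3 of 10, against 8.27% of all genes, with ITGA2 not well above background in F53S cells), and for ITGB4, which was lower (1 of 10, against 10.3%, with its K57N array of slide 1 not well above background). By limma, 0 subunits were called in either direction, against 0.953% of all genes called higher and 0.245% called lower, and by adjusted p alone the count was also 0 in each direction, against 1.03% and 0.38%. Counted by an unadjusted p under 0.05 and over 2-fold, 1 was higher (ITGA2, likewise through values below background) and 2 were lower (ITGB4 and ITGB8) by limma, against 1.98% and 1.21% of all genes. ITGB4, which passed the filter through WT and F53S only, is in these counts with its K57N array of slide 1 not well above background. The methods' t-test gave 1 and 1 (ITGA2 and ITGB4), against 1.73% and 0.859%, and 0 after adjustment. In the slide fit, ITGA2 was called higher and ITGB8 lower, against 1.88% and 1.1% of all genes. The call of ITGA2 used measured values below background in F53S cells, and its bound of 1.56-fold does not reach 2-fold. By adjusted p alone that fit held ITGA2, ITGA3 and ITGA6 higher and ITGB8 lower, against 5.84% and 7.53%.

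The difference of K57N from F53S was 0.70 ± 0.16 (SE) for ITGA6, with a limma adjusted p of 0.0944, and 0.00951 in the slide fit. It was 0.78 ± 0.30 for ITGA3, with adjusted p of 0.404 and 0.00224. Both laminin receptor subunits were higher in K57N cells at each replicate number. The difference was -1.14 ± 0.49 for ITGB8 (adjusted p = 0.484, and 0.00548 in the slide fit), and slide 1 gave -0.77 and slide 2 gave -1.33. ITGB8 was below 2-fold in 1 of 9 slide fits with an array left out, namely without replicate 3 of K57N, where the difference was -0.95. With replicate number as a block, ITGB8 was called (adjusted p = 0.00988) and ITGA2 was not.

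ITGA2, with its bound of 1.56-fold on the processed signal (0.17 on the log2 scale as measured with normexp), had a limma adjusted p of 0.140, and 0.0364 in the slide fit. That call also rested on single arrays. It was lost, with adjusted p between 0.0589 and 0.110, when any of the F53S or WT replicate 2 arrays or K57N replicates 1 or 2 were left out. ITGB4 differed by -1.09 ± 0.40 (adjusted p = 0.373, and 0.0701 in the slide fit), and by -0.52 with normexp background correction. ITGB5 lay between WT and K57N in F53S cells, and its difference of K57N from F53S was 0.29 (95% interval -0.12 to 0.70).

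**Figure D3:**
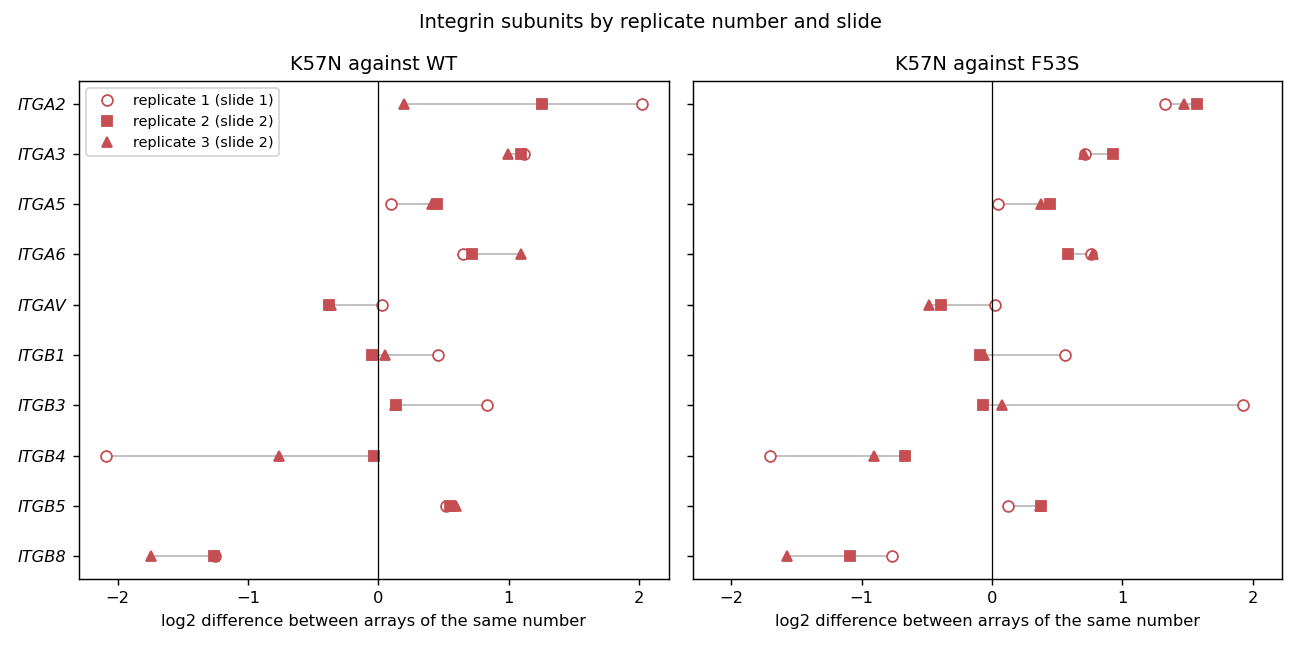
The log2 difference between arrays of the same replicate number (x axis) is plotted for each subunit (y axis), for K57N against WT (left) and against F53S (right), with open circles for slide 1 and filled squares and triangles for slide 2. ITGA3 and ITGB5 have nearly the same difference from WT at each number (0.52, 0.55 and 0.60 for ITGB5), while ITGA2, ITGB3 and ITGB4, which were not well above background on every array, spread widely against WT.

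The last comparison asked whether the RASopathy mutant differed from WT. It shares its arrays with the comparisons above. All 10 subunits overlapped between F53S and WT, where 1.53% of all genes were higher and 1.61% lower without overlap. By limma, 0 subunits were called higher and 0 lower, as were 0% of all genes in each direction, in both fits. The count of subunits by an unadjusted p under 0.05 and over 2-fold was also 0 in each direction, by limma, where 0.198% of all genes were higher and 0.026% lower, and by the methods' t-test, where 0.125% and 0% were. Over the 7 subunits well above background on all arrays, differences ran from -0.28 for ITGB8 to 0.29 for ITGA3. In the slide fit, the 95% intervals were 0.08 to 0.50 for ITGA3, 0.06 to 0.47 for ITGB5 and -0.66 to 0.10 for ITGB8, with adjusted p of 0.9998 for each. Without the slide term they were -0.41 to 0.98, -0.14 to 0.67 and -1.40 to 0.85, so that a fall of ITGB8 by more than 2-fold lay within the last of them. ITGA2 was not well above background in either line, and no difference is given for it. On each slide, the F53S mean lay above that of WT for ITGA3 and ITGB5 and under it for ITGB8, and none of these differences passed the test.

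The integrin partners were read from lists of genes that bind or serve integrins. Of 16 other integrin subunits, 9 were tested and 0 were called in any comparison, with 1 of 9 higher in mean in K57N than in WT cells, where 42.9% of all genes were. Of 25 activators and actin linkers, such as talins and kindlins, 23 were tested, and of 12 adhesion kinases and scaffolds 11 were tested, with 0 called in each list. The hemidesmosome partners had 2 of 3 genes tested and 0 called. Of all genes, 1.52% were called higher and 0.739% lower in K57N against WT, so that a count of 0 in lists of this size is no result about them. The medians of these 4 lists in K57N against WT were -0.19, 0.07, 0.04 and -0.03, beside -0.06 over all genes tested.

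Of 9 membrane partners, 1 was called higher in K57N against WT, where 1.52% of all genes were, and against F53S, where 0.953% were. PLAUR, the urokinase receptor, which associates with integrins at the membrane, rose by 2.63 ± 0.34 (SE) on the log2 scale in K57N against WT (limma adjusted p = 0.00675) and by 2.40 against F53S (adjusted p = 0.0168). Of 24 ligands, 22 were tested, and 1 rose and 1 fell in both comparisons, where 0.739% of all genes were called lower against WT and 0.245% against F53S. TGFB1, whose latent form is bound by ITGAV pairs, rose by 2.67 ± 0.22 against WT (adjusted p = 0.000751) and by 2.14 against F53S (adjusted p = 0.00444). NPNT, a kidney matrix protein that binds integrins, fell by 2.22 ± 0.32 against WT (adjusted p = 0.0104) and by 1.73 against F53S (adjusted p = 0.0458). In the slide fit, the laminin chain LAMB1 was also called against WT, at 1.08 (adjusted p = 0.000337), and the collagen chain COL1A1 at -1.20 (adjusted p = 0.00327), in a fit that called 2.56% of all genes higher and 1.96% lower.

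**Figure D4:**
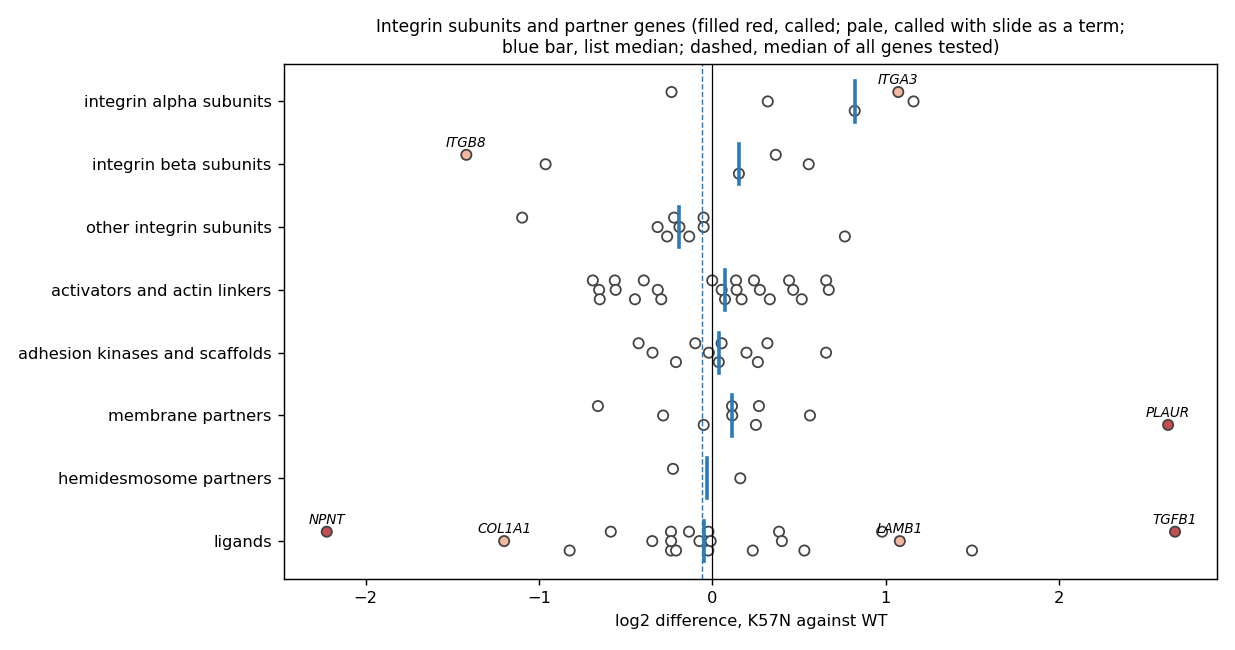
The log2 difference of K57N against WT (x axis) is plotted for each tested gene of the integrin subunits and of the partner lists (y axis), filled red where called, pale where called only with slide as a term, with a blue bar for each list's median (measured values, ITGA2 included) and a dashed line for the median of all genes. PLAUR and TGFB1 lie far to the right and NPNT far to the left, and the kinases and linkers stay within 0.7 of 0.

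Of markers of other cell types, KRT14, a keratin of basal epithelia, which also carry ITGB4, fell by 2.15 ± 0.44 (SE) on the log2 scale in K57N against WT (limma adjusted p = 0.0450). The summed level of the 4 keratinocyte markers, in multiples of the 75th percentile, was 0.635 to 1.29 in WT, 0.385 to 0.936 in F53S and 0.164 to 0.293 in K57N cells. KRT5, TP63 and DSG3 were well above background on no array of any line. Of markers of blood cells, endothelium and fibroblasts, 4, 2 and 1 were tested, and 0 were called in any comparison. The part of such cells in the difference of ITGB4 was not tested.

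Genes most like ITGA3 and ITGB8 across the 9 arrays were listed after the mean of each slide was removed. These subunits were taken after their values were seen, because 0 were called without the slide term. For ITGA3 they were BMS1, ABHD5, TMTC1, IER3 and TRABD2A, with Pearson's r between 0.996 and 0.999, and 6.24% of all genes had r above 0.9. For ITGB8 they were DRC11, NR3C2, LIMCH1, PDE8B and TMEM170B, with r between 0.989 and 0.993, and 3.72% of all genes had r above 0.9. The arrays share slide, line and scaling, so these values describe the 9 arrays only.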

How the data were processed

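RNA of 3 stable HEK293 lines was read on 9 Agilent arrays (1 color, 3 per line, positions on hg19). The authors deposited each array's processed signal, an intensity after background subtraction by Agilent Feature Extraction 10.10.1.1 (per the submitters' processing notes), not scaled between arrays. They also deposited a log2 table that equals the log2 of that signal less a constant per array, within 0.02 for at least 99.2% of 50598 probes. The tool for its normalization is not given in the sources used here.

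Processed signals were taken to log2 less the array's 75th percentile over non-control spots. Spots flagged as outliers (278 to 501 per array) were dropped, and repeated spots averaged. Tested probes were well above background in all 3 arrays of some line. A gene was represented by its brightest tested probe. Probes carried a RefSeq name for 28173 and the array's name otherwise. The fit (R 4.3.3, limma 3.58.1, with the package data.table at 1.17.8; Python 3.11.15, pandas 2.3.3, numpy 2.4.6, matplotlib 3.10.9) held 1 mean per line, with p adjusted over 25400 probes. No array was dropped from it. The number of arrays limits the precision.

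After removal of each line's mean, arrays with a shared replicate number had correlations across genes of 0.351 to 0.88. Arrays with a shared number also share a slide, so these values do not show a pairing beyond the slide. The SD of log2 differences between replicates 2 and 3 was 0.302 to 0.327, and between replicate 1 and the others 0.613 to 0.901. In simulated data with these slide differences, 35% of genes changed by 1.5 on the log2 scale were called in K57N against WT, and 93% with slide as a term, over 19211 genes. The simulated slide difference was the same in every line, so the slide term was right by construction. A difference between lines that varies by slide was not simulated.

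Alternatives were normexp background correction (offset 50), quantile normalization, no filter, a filter on all 9 arrays, averaging a gene's probes, the replicate block, a slide block, the deposited table, the methods' t-test, slide 2 alone and leaving out each array. The slide block with each array left out was added after seeing the data. Named genes are the subunits, MAP2K1, and the called genes of each list. The subunits and lists were chosen with earlier results of these data known. Promoter sequences are from RefSeq.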

Additional observations from a re-analysis of the deposited data

Results flagged for a closer look

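A line-by-slide interaction in limma passed an adjusted p of 0.05 for 3 subunits. Slide 1 held 1 array per line, so each slide 1 difference is 1 array against 1 array, and the spread in this test comes from slide 2 alone. The same test passed for 3520 of all 25400 probes (13.9%) in K57N against WT, 5994 (23.6%) in K57N against F53S and 29 (0.114%) in F53S against WT. For ITGB3 the interaction, the difference on slide 2 less that on slide 1, was -0.7046 in K57N against WT (adjusted p = 0.0344) and -1.925 in K57N against F53S (adjusted p = 0.0218), and the slide 1 arrays of WT and F53S were not well above background for this gene. In K57N against F53S it was -0.636 for ITGB1 (adjusted p = 0.0288; 0.56 on slide 1 and -0.07 on slide 2) and -0.4629 for ITGAV (adjusted p = 0.0472; 0.03 and -0.44). For ITGA3, ITGA6, ITGB5 and ITGB8 the adjusted p was 0.137 or more in every comparison. The cause was not tested.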

How the results depend on the processing

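The counts of called subunits were 0 in every comparison and direction, and they moved only where the slide was accounted for. With the slide block, slide 2 alone or the replicate block (the paired fit), 1 subunit was called higher in K57N against WT (ITGA3) and 1 lower (ITGB8). Of all genes, 2.43% and 1.34% were called so on slide 2 alone and 2.51% and 1.86% with the replicate block. Against F53S, 1 was called lower (ITGB8) under all 3 and 1 higher (ITGA2, not well above background in F53S cells) under the slide block and slide 2 alone. Here slide 2 alone called 1.78% and 0.682% of all genes higher and lower, and the replicate block 1.81% and 1.04%. When single arrays were left out without the slide term, the counts stayed at 0. With it they ran from 1 to 2 higher and 1 to 2 lower against WT, where 2.32% to 2.55% and 1.37% to 2.3% of all genes were called, and from 0 to 1 higher and 0 to 2 lower against F53S, where 1.62% to 1.86% and 0.724% to 1.36% were. The counts of 2 added a dim subunit: ITGA2 without replicate 3 of K57N (not well above background in WT cells), and ITGB4 without replicate 2 of WT and, against F53S, without replicate 1 of WT. Under normexp, quantile normalization, both filters, the mean of a gene's probes, the deposited table and the methods' t-test they stayed at 0. The filter on all 9 arrays tested 7 of the 10 subunits. The replicate block changed no other call.

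ITGB1 reversed on slide 2 alone, to -0.001088 against WT and -0.07393 of K57N against F53S. ITGB3 of F53S against WT reversed to 0.121 under normexp and 0.1264 on slide 2 alone, and of K57N against F53S to -0.1157 under normexp. With 1 array left out, with or without the slide term, differences that crossed 0 in F53S against WT ran from -0.1557 to 0.2044 for ITGA5, -0.1746 to 0.2872 for ITGAV, -0.1911 to 0.2788 for ITGB1, -0.6376 to 0.4072 for ITGB3, -0.2667 to 0.5935 for ITGB4 and -0.6502 to 0.1984 for ITGB8. In K57N against WT they ran from -0.05307 to 0.2858 for ITGB1 and -0.07283 to 0.5484 for ITGB3, and in K57N against F53S from -0.1259 to 0.2842 for ITGB1 and -0.04182 to 1.003 for ITGB3. None of these was a called difference, and the cause of these reversals was not tested.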
